A study of Mus musculus with 8 samples.

Results

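Cadherins, catenins and desmosome proteins hold epithelial cells together. Classical cadherins are calcium-dependent adhesion molecules that bind the same cadherin on the neighbouring cell. Inside the cell, β-catenin and plakoglobin bind the cadherin tail, and α-catenin links the complex to actin. In desmosomes, desmogleins and desmocollins take the place of the classical cadherins, and plakophilins, plakoglobin and desmoplakin tie them to keratin filaments. β-Catenin also acts as a transcriptional partner of TCF and LEF proteins in Wnt signalling. Medullary thymic epithelial cells (mTECs), which show self antigens to developing thymocytes, carry such junctions.

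The genes described here were chosen by symbol and not by a cut on their counts, although earlier results of these data were known. They are the classical cadherins *Cdh1* (E-cadherin), *Cdh2* (N-cadherin) and *Cdh3* (P-cadherin), the catenins *Ctnna1* (αE-catenin), *Ctnnb1* (β-catenin) and *Jup* (plakoglobin), and the desmosome genes *Dsp* (desmoplakin), *Dsg2* (desmoglein), *Dsc2* (desmocollin) and *Pkp2* (plakophilin). These are 10 of the 24052 genes counted in each library, and all 10 were among the 11672 genes that had enough counts to be tested.

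The libraries come from mTEC 3.10, a line of mouse (C57BL/6) medullary thymic epithelial cells. The wild-type cells (WT) carry intact *Aire*, the gene of the regulator of self antigen expression in mTECs. The mutant cells (E6) are a clone in which Crispr-Cas9 changed *Aire*, so that the mutation and the descent from 1 cell cannot be told apart. The labels give its genotype as Aire +/-, whereas the study's methods describe changes in both alleles. Each was sequenced before adhesion (mTECs alone) and after adhesion (mTECs kept for 12 h with 50 thymocytes per mTEC, then washed and collected), 2 times each, which gives 8 libraries. By the labels, the mTECs had been cultured for 12 h or 24 h, which differed between libraries of the same condition. The labels do not say that the 2 came from separate cultures, so p-values measure only the spread between these libraries.

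The libraries held 13506610 to 20145154 counts on genes, and levels are given as CPM, counts scaled to library size with TMM factors. A count of 3 is worth 0.149 to 0.222 CPM before the TMM factors. The epithelial markers *Epcam*, *Krt8* and *Krt14* and the thymic epithelial factor *Foxn1* were read in all 8 libraries. *Krt5*, listed as a marker of both epithelial cells and mTECs, was low, at 0.213 to 1.02 CPM. Other markers of mature mTECs were absent or nearly so. *Ccl21a* had 0 counts throughout, *Fezf2* at most 0.120 CPM, *Cd80* at most 0.239 CPM, and *Aire* at most 3 counts in any library, so that its level does not check the labels. Replicate 1 of WT after adhesion stood apart. Of its alignments 66.7% fell on genes, where the others had 75.7% to 78.8%, and its counts leaned away from GC-rich transcripts, with a slope of -0.46 on the log2 scale per 10 points of GC content against -0.02 to 0.13 elsewhere. For *Jup*, *Dsp* and *Dsg2*, results are also given without this library, and for *Cdh1* and *Ctnnb1* as ranges with each library left out in turn.

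E-cadherin was the leading cadherin of these cells. In CPM per kb of exon, a scale on which genes of different length can be compared, the median level over the 8 libraries was 183 for *Cdh1*, 144 for *Ctnna1*, 101 for *Ctnnb1*, 87.7 for *Jup*, 83.6 for *Dsp*, 34.9 for *Cdh3*, 25.7 for *Dsc2*, 8.85 for *Pkp2*, 7.94 for *Dsg2* and 0.0044 for *Cdh2*. *Cdh1* gave 82.6% to 86.4% of the summed CPM per kb of the 3 classical cadherins in every library. Most neighbours in this order did not overlap over the 8 libraries. The exceptions were *Ctnnb1* and *Jup* (*Ctnnb1* higher in 7 of 8 libraries), *Jup* and *Dsp* (*Jup* higher in 3 of 8) and *Pkp2* and *Dsg2* (*Pkp2* higher in 7 of 8).

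**Figure D1:**
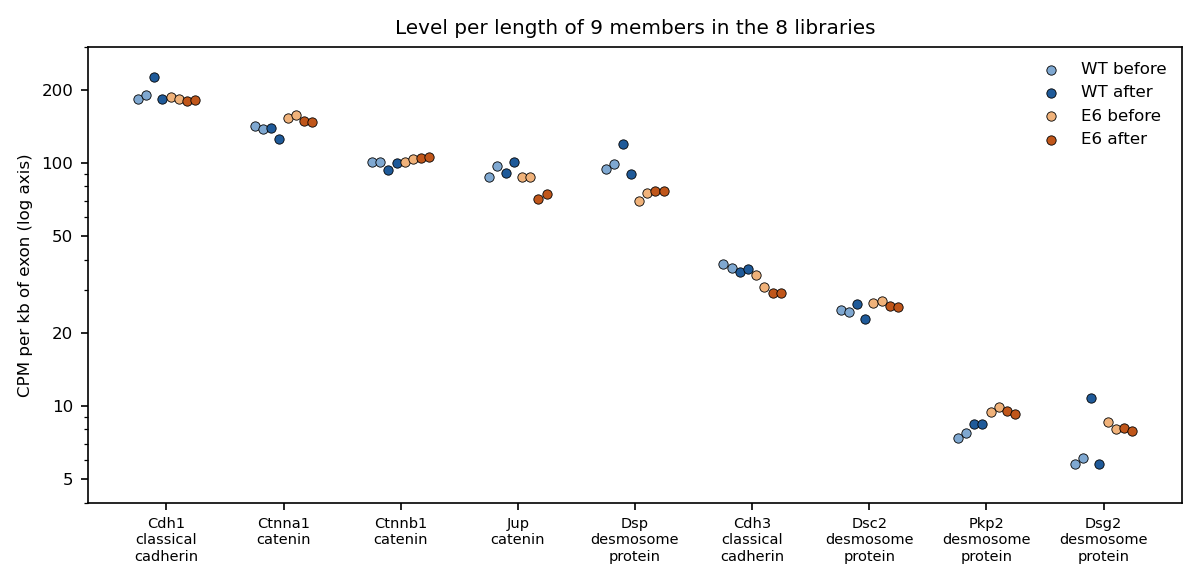
Level per length of 9 of the genes, as CPM per kb of exon on a log axis, with 1 point per library coloured by condition; *Cdh2*, which was at 0 in all E6 libraries, is not drawn. *Cdh1* sits highest, between 180 and 225 CPM per kb, and *Pkp2* and *Dsg2* lowest, between 5.75 and 10.7.

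The first question was whether the mRNAs of these junctions differ between the *Aire*-mutant clone and WT mTECs. Averaged over both conditions, *Cdh2* was lower in E6, and it was the 1 gene of the 10 that was a DE mRNA. DE mRNAs had a false discovery rate (FDR, Benjamini-Hochberg over all tested genes, edgeR quasi-likelihood test) under 0.05 and a fold change (FC) of at least 1.5, which held for 11.3% of all tested genes. By FDR alone 3 of the 10 passed, *Cdh2*, *Dsp* and *Pkp2*, against 20.9% of all tested genes. With culture time as a term it was 1, against 17.1% of all tested genes, and the FDR of *Dsp* was 0.0538. By DESeq2 4 passed, against 17.7%, and with a GC correction of the counts 6 passed, against 28.6%. For the other 9 genes the changes were small, with log2 FC from -0.43 to 0.26, and for 7 of these 9 the whole 95% interval of the FC lay within 1.5-fold in either direction. The libraries of WT and E6 did not overlap for 6 of the 10 genes, against 31.2% of all tested genes.

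*Cdh2* encodes the cadherin of neural and mesenchymal cells. Its counts were 13 and 9 in WT before adhesion, 1 and 8 in WT after adhesion, and 0 in each of the 4 E6 libraries. In CPM these were 0.789 and 0.663 before and 0.0709 and 0.387 after adhesion in WT. All 4 WT libraries were above all 4 E6 libraries, although replicate 1 of WT after adhesion was itself under the level of 3 counts. Set against a floor of 3 counts over the 4 E6 libraries together, *Cdh2* was at least 10.6-fold lower in E6 (FDR = 0.0241). The 31 counts behind this value are few. The FDR rose to between 0.0627 and 0.0978 when any library other than those of WT after adhesion was left out.

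*Cdh1* encodes the cadherin that defines epithelial adherens junctions. Its level was 840 and 868 CPM in WT before adhesion, 1028 and 838 CPM in WT after adhesion, 853 and 837 CPM in E6 before and 825 and 827 CPM in E6 after adhesion. All but 1 of these 8 values lay between 825 and 868 CPM, and the high value was that of replicate 1 of WT after adhesion. The log2 FC of E6 against WT was -0.10 ± 0.09 (SE, 4 libraries each, FDR = 0.506), and its 95% interval of the FC ran from 0.806 to 1.09.

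*Cdh3*, the gene of P-cadherin of basal epithelial cells, lies 46.1 kb before *Cdh1* on chromosome 8 in the same orientation. It was at 169 and 163 CPM in WT before, 155 and 160 CPM in WT after, 151 and 135 CPM in E6 before and 128 and 128 CPM in E6 after adhesion. Every E6 library was under every WT library. The log2 FC was -0.26 ± 0.08 with an FDR of 0.0527, above the limit, while the median of the genes on chromosome 8 was 0.01.

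The catenins link these cadherins to the cell's interior. *Ctnna1*, which couples the complex to actin, was at 908 and 888 CPM in WT before, 892 and 807 CPM in WT after, 983 and 1012 CPM in E6 before and 960 and 945 CPM in E6 after adhesion. All E6 libraries were higher, by a log2 FC of 0.16 ± 0.08 that did not pass the test (FDR = 0.203). *Ctnnb1*, the shared component of junctions and Wnt signalling, was at 522 and 523 CPM in WT before, 486 and 518 CPM in WT after, 526 and 541 CPM in E6 before and 545 and 550 CPM in E6 after adhesion. These groups did not overlap either, by a narrow margin, and the log2 FC was 0.08 ± 0.07 (FDR = 0.506).

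*Jup* encodes plakoglobin, which serves both adherens junctions and desmosomes. It was at 563 and 623 CPM in WT before, 588 and 646 CPM in WT after, 562 and 565 CPM in E6 before and 459 and 479 CPM in E6 after adhesion. The E6 libraries after adhesion were lower than the other 6, and the E6 libraries before adhesion overlapped with WT. The averaged log2 FC was -0.23 ± 0.08 (FDR = 0.0854), with -0.07 ± 0.12 before adhesion (FDR = 0.792) and -0.40 ± 0.12 after adhesion (FDR = 0.0729). Without replicate 1 of WT after adhesion, the value after adhesion was -0.43 (FDR = 1.22e-05), where 42.8% of all tested genes passed the FDR limit. Since *Ctnnb1* and *Jup* encode related proteins that share a place on the cadherin tail, their ratio per kb was also computed. It ran from 0.993 to 1.15 in the WT libraries and from 1.16 to 1.47 in the E6 libraries. The E6 libraries before adhesion, at 1.16 and 1.19, lay close to the highest WT value. Of the other ratios per kb, *Cdh1* to *Cdh3*, *Ctnna1* to *Ctnnb1*, *Dsc2* to *Dsg2* and *Pkp1* to *Pkp2* overlapped between WT and E6. In all of these but *Ctnna1* to *Ctnnb1*, the overlap rested on replicate 1 of WT after adhesion. The ratios of *Dsp* to *Pkp2*, *Dsg2* to *Dsg3* and summed catenins to summed classical cadherins did not overlap.

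*Dsp* encodes desmoplakin, which anchors keratin filaments at the desmosome. It was at 912 and 956 CPM in WT before, 1154 and 873 CPM in WT after, 676 and 730 CPM in E6 before and 740 and 742 CPM in E6 after adhesion. All 4 E6 libraries were under all 4 WT libraries. The log2 FC was -0.43 ± 0.11 with an FDR of 0.0294, and the FC of 0.742 (95% interval 0.623 to 0.883) did not reach the 1.5-fold limit. The median of chromosome 13, where *Dsp* lies, was -0.03. Without replicate 1 of WT after adhesion the log2 FC was -0.31 (FDR = 8.13e-07), and with any library other than those of WT after adhesion left out its FDR was at most 0.129 and did not pass the limit.

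*Dsp* and *Jup*, 2 linker genes with lower point estimates in E6, are among the 3 members with an entry in the RefSeq promoter table (GRCm38.p6, *Ctnnb1* being the third). Their promoters are shown because repressors of the Snail and Zeb families bind E-box sequences. The windows run from 250 bases before to 20 bases after the RefSeq start, on the strand of the gene. For *Dsp* this is chr13:38151044-38151313 (plus strand) and for *Jup* chr11:100397771-100398040 (minus strand), and capitals mark the letters CAGGTG or, on the other strand, CACCTG.
Dsp: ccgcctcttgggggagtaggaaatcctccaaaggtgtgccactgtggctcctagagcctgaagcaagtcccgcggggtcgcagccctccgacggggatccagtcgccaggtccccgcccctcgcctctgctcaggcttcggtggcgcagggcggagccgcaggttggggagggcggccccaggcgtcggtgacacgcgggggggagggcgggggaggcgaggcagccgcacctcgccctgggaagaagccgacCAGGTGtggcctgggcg
Jup: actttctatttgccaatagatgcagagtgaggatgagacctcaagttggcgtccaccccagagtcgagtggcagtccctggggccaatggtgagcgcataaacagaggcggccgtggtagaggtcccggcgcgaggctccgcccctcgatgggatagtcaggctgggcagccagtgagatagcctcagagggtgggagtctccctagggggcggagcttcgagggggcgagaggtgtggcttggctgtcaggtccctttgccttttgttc
The *Dsp* window holds the motif once, starting at base 4 of the transcript, and the *Jup* window does not hold it. Of all 32851 promoter windows of 300 bases, 20.2% held CAGGTG on either strand, so the match describes the letters only.

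The other desmosome genes had point estimates on the higher side in E6. *Pkp2*, which encodes a plakophilin of the desmosomal plaque, was at 39.6 and 41.3 CPM in WT before, 45.3 and 45.2 CPM in WT after, 50.8 and 53.2 CPM in E6 before and 51.3 and 49.6 CPM in E6 after adhesion. All E6 libraries were above all WT libraries, with a log2 FC of 0.26 ± 0.07 (FDR = 0.0462), short of the 1.5-fold limit. The FDR was 0.0782 with the replicate number as a block, 0.0792 with culture time as a term, and 0.133 to 0.197 when any library other than those of WT after adhesion was left out. The median of chromosome 16, where *Pkp2* lies, was 0.10. The ratio of *Dsp* to *Pkp2* per kb was 10.7 to 14.1 in WT and 7.38 to 8.30 in E6.

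*Dsg2*, the desmoglein of simple epithelia, was at 47.7 and 50.5 CPM in WT before, 88.7 and 47.5 CPM in WT after, 70.7 and 66.2 CPM in E6 before and 67.1 and 65.1 CPM in E6 after adhesion. Here 1 library decided the outcome. Replicate 1 of WT after adhesion was above every E6 library, and the other 3 WT libraries were below every E6 library. With all libraries the log2 FC was 0.22 ± 0.18 (FDR = 0.430), and without that library it was 0.49 (FDR = 1.62e-07).

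*Dsc2* encodes the desmocollin that pairs with desmoglein 2. It was at 131 and 129 CPM in WT before, 139 and 120 CPM in WT after, 140 and 143 CPM in E6 before and 136 and 135 CPM in E6 after adhesion. The groups overlapped, and the log2 FC was 0.10 ± 0.08 (FDR = 0.430).

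**Figure D2:**
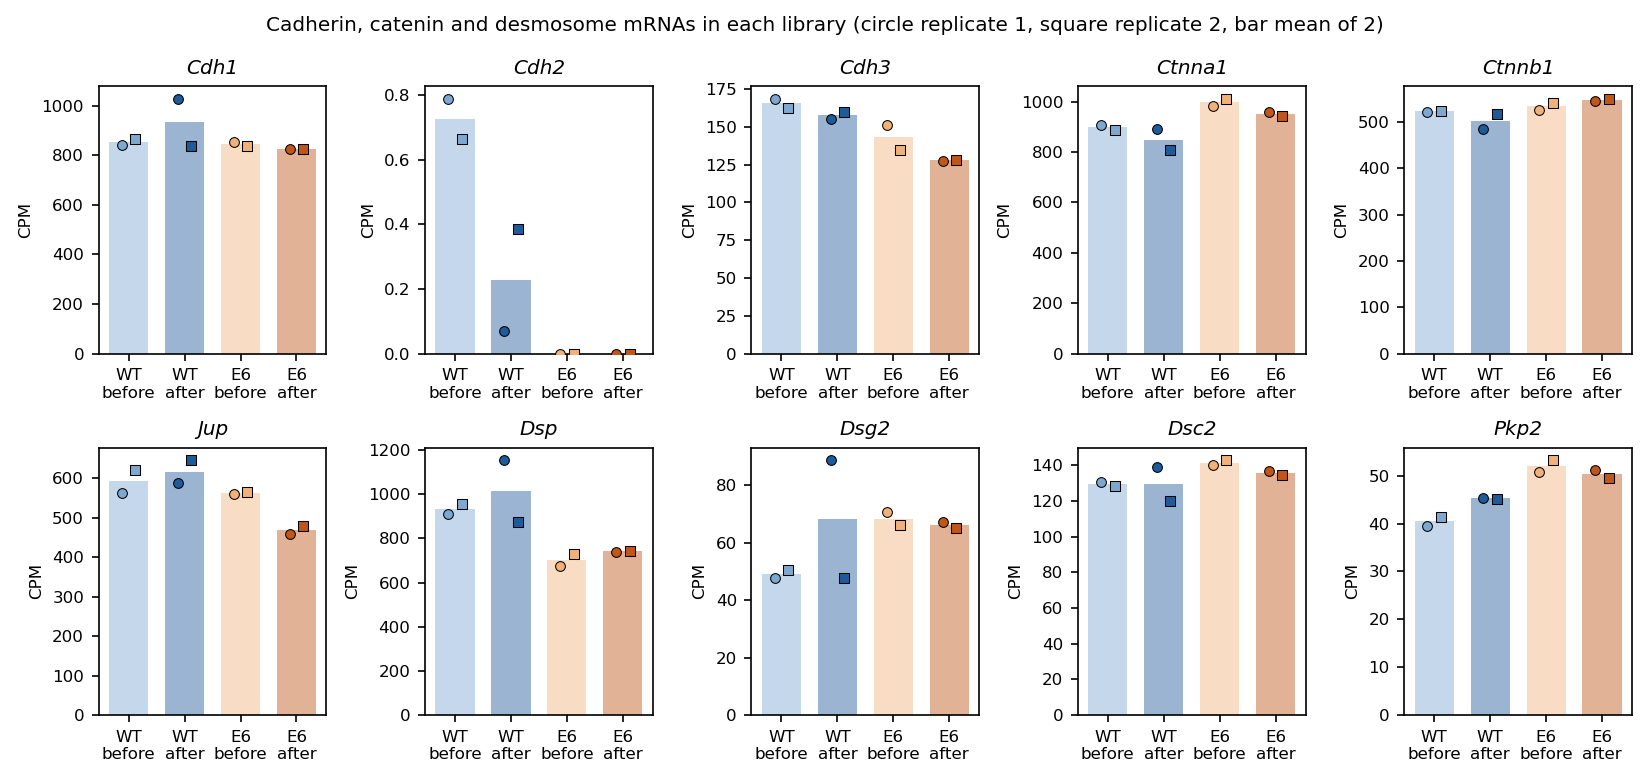
CPM of each of the 10 genes in each library, with circles for replicate 1, squares for replicate 2 and bars for the mean of 2, on axes that start at 0. *Cdh2* is at 0 in the 4 E6 libraries, *Dsp* is lower in all 4 E6 libraries, and the circle of WT after adhesion stands apart for *Cdh1* (1028 CPM) and *Dsg2* (88.7 CPM).

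The conditions taken separately gave no DE mRNA among the 10 genes. Before adhesion 0 of 10 were called, where 5.01% of all tested genes were, and 3 had an unadjusted p under 0.05, against 21.6% of all tested genes. The log2 FC of *Dsp* was -0.41 ± 0.15 (FDR = 0.170), that of *Pkp2* 0.36 ± 0.11 (FDR = 0.0940), and the FDR of *Cdh2* was 0.0701. After adhesion 0 of 10 were called, where 8.91% of all tested genes were, and 4 had an unadjusted p under 0.05, against 29.7% of all tested genes. The log2 FC of *Dsp* was then -0.45 ± 0.15 (FDR = 0.101) and that of *Cdh3* -0.30 ± 0.11 (FDR = 0.117). DESeq2 called 0 of the 10 in either condition, against 803 of 15836 genes before and 1290 after adhesion. With a GC correction of the counts, *Jup* became a DE mRNA after adhesion (log2 FC -0.63, FDR = 0.0318) and *Cdh2* before it (FDR = 0.0459). That correction called 1390 of the 11672 tested genes after adhesion and 899 before it. With all libraries, *Dsp* thus had a like point estimate in both conditions. With a library left out, that of *Dsp* ran from -0.47 to -0.35 before and from -0.61 to -0.21 after adhesion. *Dsg2* went from 0.48 ± 0.26 before (FDR = 0.348) to -0.04 ± 0.25 after adhesion (FDR = 0.935), a difference that again turned on replicate 1 of WT after adhesion. Without it, the log2 FC of *Dsg2* after adhesion was 0.51 (FDR = 6.67e-05).

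The estimate of the spread rests largely on the WT libraries after adhesion. With replicate 1 left out, 8 of the 10 genes passed the FDR limit in the averaged contrast, all but *Cdh1* and *Ctnnb1*, but so did 53.9% of all tested genes. The lone WT library after adhesion is then assumed to vary like the other groups. Of the 10, *Cdh2* was again the 1 gene that also reached 1.5-fold. With replicate 2 of WT after adhesion left out instead, 8 of the 10 and 63.5% of all tested genes passed the FDR limit.

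**Figure D3:**
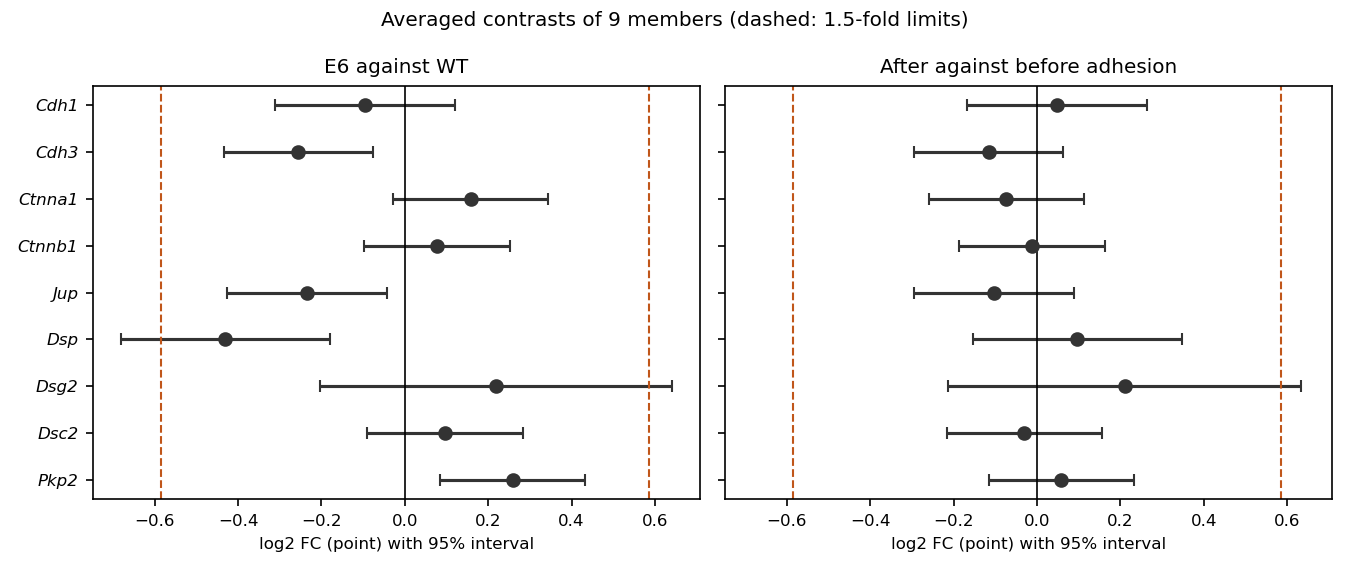
Log2 FC of 9 genes for E6 against WT (left) and after against before adhesion (right), each averaged over the other factor, as points with 95% intervals; dashed lines mark 1.5-fold and *Cdh2*, whose fitted value depends on the prior count, is not drawn. On the left the intervals of *Cdh3*, *Jup* and *Dsp* lie wholly below 0 and that of *Pkp2* wholly above 0, and on the right all 9 intervals include 0.

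The second question was whether adhesion of thymocytes changes these mRNAs. None of the 10 genes was a DE mRNA in WT, in E6 or averaged over both, and DESeq2 called none either. By edgeR, none had an unadjusted p under 0.05 in these contrasts. With WT and E6 pooled, no gene of the 10 had its libraries after adhesion all above or all below those before. The share of all tested genes that separate in this way was not counted, so this describes the 10 genes only. Within a cell type some did, such as *Jup* in E6 and *Pkp2* in WT, with 2 libraries on each side. Averaged over both cell types the smallest FDR was 0.666, and for 8 of 9 genes, *Cdh2* aside, the 95% interval of the FC lay within 1.5-fold. The exception was *Dsg2*, with an interval from 0.863 to 1.55. Of all tested genes, 1.89% were called in the averaged contrast, 2% in E6 and 0% in WT, where 873 genes had an unadjusted p under 0.05 by edgeR and DESeq2 called 59. *Cdh2* had 22 counts in WT before and 9 in WT after adhesion (FDR = 0.620), and no FC is given in E6, where all libraries were at 0. Culture time of the mTECs differed as well, while every co-culture lasted 12 h. By the labels it was 24 h for replicate 2 of WT after adhesion and both E6 replicates numbered 1, and 12 h otherwise.

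On adhesion within E6, the log2 FC farthest from 0 among the 9 genes was that of *Jup*, with 562 and 565 CPM before and 459 and 479 CPM after. It was -0.26 ± 0.12 (FDR = 0.759), against 0.06 ± 0.12 in WT, where no gene passed the FDR limit. The test of the difference of the adhesion effects gave -0.32 ± 0.16 on the log2 scale (FDR = 0.988), and 0% of all tested genes were called in that contrast, where 297 had an unadjusted p under 0.05 by edgeR and DESeq2 called 2. Without replicate 1 of WT after adhesion, the FDR of *Jup* was 0.00333 for adhesion in E6 and 0.0230 for the difference, with log2 FC of -0.24 and -0.36, both under the 1.5-fold limit. Of all tested genes 12.1% and 2.23% then passed the FDR limit, and the difference rests on 1 WT library after adhesion. *Dsg2* in WT, at 47.7 and 50.5 CPM before, was at 88.7 CPM in 1 library after adhesion and at 47.5 CPM in the other (FDR = 0.620). With replicate 2 of WT after adhesion left out, *Dsg2* and *Cdh2* became DE mRNAs of adhesion in WT, *Dsg2* with a log2 FC of 0.84, as did 29.8% of all tested genes, with 1 WT library left after adhesion.

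RNA of other cells moved with the adhesion groups. Of the 25 thymocyte markers listed, 15 were read here, and 11 of the 12 that were tested rose on adhesion averaged over both cell types. Their summed level was 0.268 to 0.971 CPM before adhesion, 12.5 to 15.8 CPM in WT after adhesion and 87.8 to 109 CPM in E6 after adhesion. The summed level of 5 endothelial markers was at most 0.0693 CPM before and at most 2.09 CPM after adhesion. Of these, *Pecam1*, the 1 gene tested, was at 0 before adhesion and was called on adhesion (FDR = 0.0469, and 0.106 with the replicate block). The summed level of 6 fibroblast markers was at most 0.532 CPM in all libraries, and that of 6 myeloid markers was 44.7 to 67.6 CPM before and 46.1 to 64.4 CPM after adhesion. A single gene made up to 65.9 CPM of this last sum, and 3 of the 5 myeloid markers tested rose on adhesion. *Lyz2*, the gene of lysozyme, was at 0 in all libraries before adhesion, at 0.851 and 1.16 CPM in WT after and at 6.52 and 5.25 CPM in E6 after adhesion (FDR = 0.00569). *Emr1*, which encodes F4/80, was likewise at 0 before, at 0.284 and 0.242 CPM in WT after and at 2.21 and 1.25 CPM in E6 after adhesion (FDR = 0.0440). *Cd68* was at 1.69 to 2.89 CPM before and 3.77 to 6.09 CPM after adhesion (FDR = 0.0277). Of 15 mTEC markers 8 were tested, and their summed level was 1292 to 2024 CPM over all libraries. Of these, *Cldn4*, a claudin, rose in E6 (log2 FC 0.69 ± 0.16, FDR = 0.0232), a call that was lost in 7 of 8 leave-outs of a library and with the GC correction, alone or with the replicate block. *H2-Ab1*, an MHC class II gene among the mTEC markers, was at 0 before adhesion, at 0.355 and 0.290 CPM in WT after and at 1.08 and 1.43 CPM in E6 after adhesion, and it was called on adhesion (FDR = 0.0309). With the replicate block the FDR on adhesion was 0.0743 for *Emr1* and 0.0816 for *H2-Ab1*. The part of other cells in the levels of the 10 genes was not tested. In bulk RNA, fewer cells of a type and less RNA per cell cannot be told apart.

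The other genes of the junctions, their regulators and targets were taken in 8 lists of 95 genes, of which 60 were tested; the epithelial regulators and markers, given on their own, are not in this total. In E6 against WT, averaged, 4 of these 60 rose and 3 fell, which is 11.7%, against 11.3% of all tested genes, and the median log2 FC was 0.07 against -0.01 for all tested genes. On adhesion, averaged, 3 rose and 0 fell, which is 5%, against 1.89% of all tested genes. These were *Zeb1*, *Vim* and *Lef1*, and the thymocyte markers moved with all of them. The part of thymocyte RNA in these changes was not tested.

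Of 19 other classical and atypical cadherins, 4 were tested and 0 were DE mRNAs in either averaged contrast, by edgeR or by DESeq2, although 2 had an unadjusted p under 0.05 in E6 against WT, where 35.3% of all tested genes had one. The most abundant were *Cdh10*, with a log2 FC of -0.50 ± 0.11 in E6 (FDR = 0.0223), and *Cdh13*, a cadherin without a transmembrane segment, with -0.52 ± 0.09 (FDR = 0.00829), both short of 1.5-fold. Of 13 other catenins and junction linkers, 10 were tested and 0 were called by either tool, with 1 at an unadjusted p under 0.05 in E6 against WT. Among them were *Tjp1* (log2 FC -0.13 ± 0.17, FDR = 0.619), the scaffold ZO-1, and afadin, listed as *Mllt4* (0.11 ± 0.09, FDR = 0.426). *Tjp1* was at 1059 CPM in replicate 1 of WT after adhesion and at 583 to 665 CPM in the other libraries, and without that library the log2 FC was 0.11 (FDR = 0.0316) for *Tjp1* and 0.20 (FDR = 0.000183) for *Mllt4*.

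Among the other desmosome and plakin genes, 7 of 13 were tested, 1 rose and 1 fell. *Dsg3*, the desmoglein of stratified epithelia, was at 5.95 and 6.34 CPM in WT before, 4.68 and 3.24 CPM in WT after, 2.29 and 2.14 CPM in E6 before and 2.15 and 2.09 CPM in E6 after adhesion. All E6 libraries were lower, with a log2 FC of -1.18 ± 0.18 (FDR = 0.00502). The ratio of *Dsg2* to *Dsg3* per kb was 10.5 ± 4.54 in WT and 26.2 ± 0.136 in E6 (SD, n = 4 each). *Cdsn*, which encodes corneodesmosin, was at 32.9 and 37.9 CPM in WT before, 34.4 and 39.4 CPM in WT after, 62.5 and 64.8 CPM in E6 before and 46.7 and 45.9 CPM in E6 after adhesion. Its averaged log2 FC was 0.59 ± 0.09 (FDR = 0.00556), with 0.85 ± 0.13 before (FDR = 0.0148) and 0.33 ± 0.13 after adhesion (FDR = 0.139). The averaged FC was near the 1.5-fold limit, and the call was lost in 4 of 8 leave-outs and in 3 of 7 other alternatives.

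The desmosomal cadherins lie in 1 cluster of 644 kb on chromosome 18, in the order *Dsc3*, *Dsc2*, *Dsc1*, *Dsg1c*, *Dsg1a*, *Dsg1b*, *Dsg4*, *Dsg3*, *Dsg2*. Over all 8 libraries *Dsc2* had 17560 counts, *Dsg2* 8174 and *Dsg3* 461. The rest of the cluster was near silent, with 3 counts for *Dsg1b*, 1 each for *Dsc1* and *Dsc3*, and 0 for *Dsg1a*, *Dsg1c* and *Dsg4*. The *Dsg1* copies are near-identical, so that reads could be split or lost among them.

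The repressors of E-cadherin transcription had a median log2 FC of -0.71 in E6 over the 6 tested of 8, and 1 of them was called. The median was -0.52 before and -0.74 after adhesion. In replicate 1 of WT after adhesion, *Zeb2* was at 13.9 CPM, against 5.34 to 5.89 CPM in the other WT libraries. *Snai2* was at 4.11 CPM there, against 0.871 to 1.94 CPM. *Tcf3* went the other way, at 134 CPM against 175 to 206 CPM. *Tcf4*, a basic helix-loop-helix factor, was lower in E6, with 40.9, 41.8, 47.5 and 39.4 CPM in the WT libraries and 25.9, 19.7, 21.8 and 21.4 CPM in the E6 libraries (log2 FC -0.93 ± 0.12, FDR = 0.00283). On adhesion *Zeb1* rose, from 1.52 and 1.11 CPM to 2.84 and 2.03 CPM in WT and from 0.277 and 0.696 CPM to 2.63 and 2.63 CPM in E6 (log2 FC 1.61 ± 0.29, FDR = 0.0420). This call was lost in 6 of 8 leave-outs and in 4 of 7 other alternatives, among them the replicate block (FDR = 0.0845) and culture time as a term (FDR = 0.0585). *Snai1* and *Snai2*, the genes of Snail and Slug, had log2 FC of -0.27 ± 0.19 (FDR = 0.349) and -0.79 ± 0.59 (FDR = 0.380) in E6. *Cdh1*, which these factors are known to repress, did not pass the test in any contrast with all libraries.

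Of the epithelial regulators and markers, all 12 were tested and 1 was called. *Grhl1*, a grainyhead factor of epithelial cells, was at 2.91 to 4.31 CPM in WT and 6.64 to 9.57 CPM in E6 (log2 FC 1.19 ± 0.16, FDR = 0.00340). Of 8 mesenchymal markers, 5 were tested. *Fn1*, the gene of fibronectin, was higher in E6, at 5411 to 5757 CPM in WT and 8721 to 9885 CPM in E6 (log2 FC 0.75 ± 0.09, FDR = 0.00238). *Vim*, the gene of vimentin, which lymphocytes also express, had 2 and 1 counts in WT before, 13 and 18 in WT after, 0 and 1 in E6 before and 54 and 65 in E6 after adhesion (FDR = 0.00509 on adhesion).

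Of 12 targets of β-catenin, 6 were tested and 2 rose in E6. *Lef1*, a DNA-binding partner of β-catenin that thymocytes also express, was at 0.729 and 0.958 CPM in WT before, 2.06 and 2.18 CPM in WT after, 2.29 and 1.61 CPM in E6 before and 4.79 and 5.25 CPM in E6 after adhesion. After adhesion the summed thymocyte markers were also higher in E6 than in WT, and their part in these values was not tested. In E6 against WT, the log2 FC of *Lef1* was 1.20 ± 0.32 before (FDR = 0.0752) and 1.24 ± 0.26 after adhesion (FDR = 0.0295). Averaged, it passed the test for E6 against WT (log2 FC 1.22 ± 0.21, FDR = 0.00790) and for adhesion (1.36 ± 0.20, FDR = 0.0231). The former call was lost in 1 of 8 leave-outs, and the latter in 6 of 8, with the replicate block (FDR = 0.0522) and with culture time as a term (FDR = 0.0595). *Cd44*, a hyaluronan receptor, was at 415 to 642 CPM in WT and 755 to 858 CPM in E6 (log2 FC 0.75 ± 0.14, FDR = 0.0111), a call lost in 5 of 8 leave-outs. *Axin2*, a negative regulator of the pathway, had at most 0.387 CPM in any library.

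None of the 11 genes of cadherin shedding and turnover was called in either averaged contrast by edgeR or DESeq2, and 2 had an unadjusted p under 0.05 in E6 against WT, against 35.3% of all tested genes. Among the 11 were *Adam10*, the protease that releases the E-cadherin ectodomain (log2 FC -0.09 ± 0.16, FDR = 0.727, and 0.14, FDR = 0.00602, without replicate 1 of WT after adhesion), and *Furin*, which cleaves the cadherin propeptide (log2 FC 0.52 ± 0.14 in E6, FDR = 0.0345, short of 1.5-fold).

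**Figure D4:**
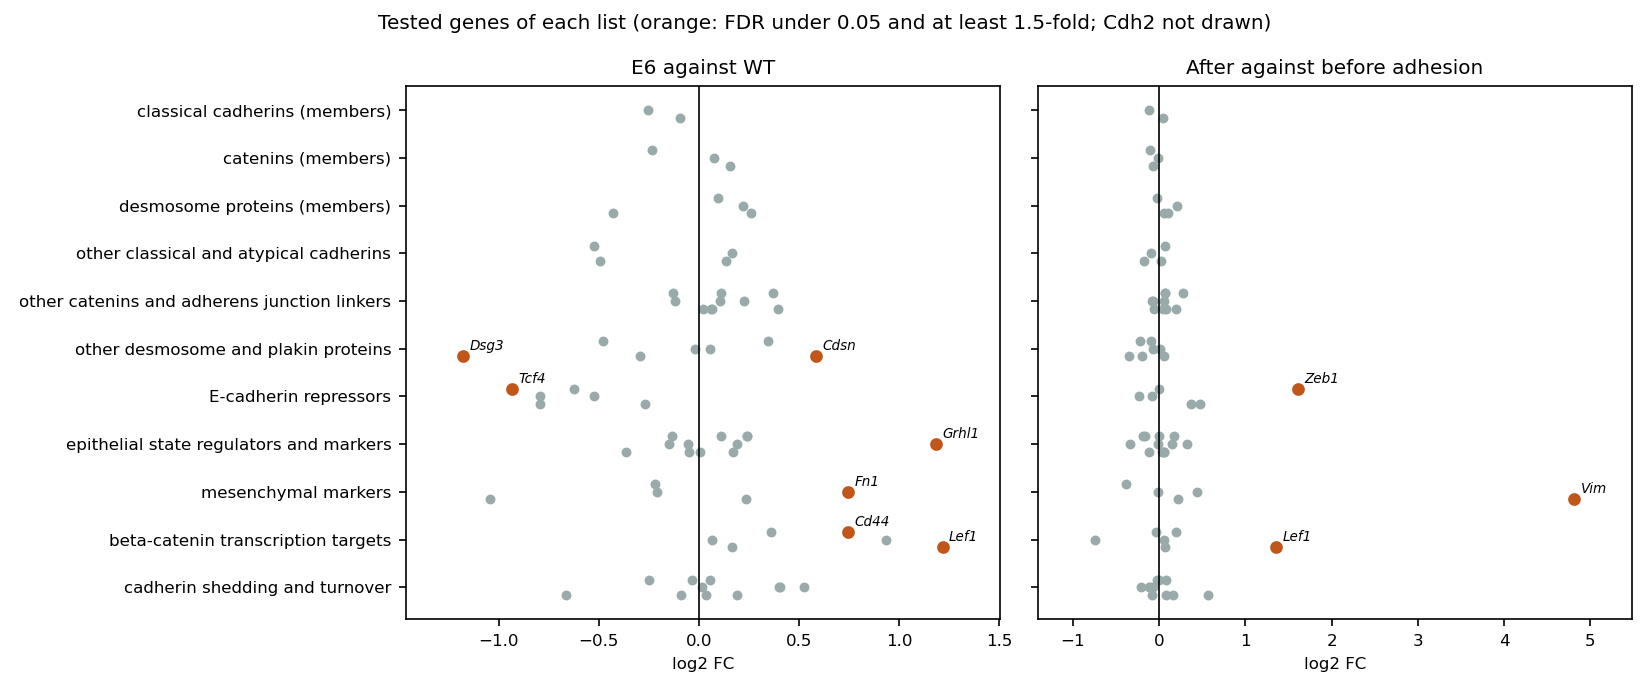
Log2 FC of the tested genes of the 10 and of the lists described for E6 against WT (left) and after against before adhesion (right), with 1 point per gene, *Cdh2* left out, and DE mRNAs in orange with their symbols; the point of *Vim* depends on the prior count, since *Vim* had at most 2 counts per library before adhesion. *Dsg3* lies lowest among the orange points on the left, at -1.18, and *Lef1* highest, at 1.22.

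The genes whose log2 CPM followed *Dsp* most closely over the 8 libraries were *Odf2*, *Hspa4l* and *Polr3b* (Pearson's r 0.991, 0.989 and 0.989). They were *Mpp1*, *Acly* and *Mvd* for *Cdh2* (0.990, 0.990 and 0.989), and *Gpt2*, *Slc6a9* and *H1f0* for *Cdh3* (0.987, 0.981 and 0.980). These are descriptions over 8 points that fall into 4 conditions and share their libraries, with about 8955 candidate genes for each. Among the 10 genes themselves, the closest pair was *Ctnna1* and *Dsc2*, with an r of 0.888.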

How the data were processed

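RNA-Seq of 8 mTEC libraries was analysed from the deposited counts, 1 table per library. Per the submitters' processing notes and the study's methods, the authors aligned paired-end reads to mm10 (GRCm38) with STAR 2.5.0a and counted reads on genes with HTSeq, without normalization, and the notes also name DESeq2. The annotation release and the strand setting of the counting are not given in the sources used here, so reads from overlapping or antisense genes cannot be told apart. The labels name a stranded mRNA library kit and the study's text a total RNA kit. Samples were grouped by their titles. The protocol text of the E6 libraries before adhesion mentions co-culture, against their titles and source names. In replicate 1 of E6 before adhesion, 18 symbols that had become dates were restored from the gene order shared by all libraries. Reads that named no gene, 21.2% to 33.3% of alignments, were left out of library sizes. A floor of 3 counts reflects counting error alone, as reads were not tagged by molecule.

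The test was the quasi-likelihood F test of edgeR 4.0.16 (R 4.3.3), on genes that passed filterByExpr (grouped by condition), with TMM scaling. All 8 libraries entered 1 model of 4 condition means, from which 7 contrasts were drawn. The FDR (Benjamini-Hochberg over 11672 genes) had to be under 0.05 and the FC 1.5 or more in either direction. The SE is the absolute log2 FC divided by the square root of F, and intervals are 95%. CPM was scaled with the TMM factors, except in floors. Exon lengths, positions and GC content came from GENCODE vM21 (GRCm38), which held 22740 of the symbols as written and 916 under a newer name, and 396 found no match. Chromosome medians left out genes whose log2 CPM averaged under 2. The steps were tested on simulated data. Alternatives were RLE size factors, DESeq2 1.42.0, no filter, a replicate block, culture time as a term, a GC correction (lowess, limma 3.58.1) with and without the block, FDR alone, only the 4 libraries compared and each library left out in turn. Python 3.11.15 read the counts and drew the figures.

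The 10 genes, the lists and the tests were chosen with earlier results of these data known. The genes named are the 10, the listed genes that were DE mRNAs in either averaged contrast, the 2 most abundant genes of lists with none, and for *Cdh1*, *Cdh2*, *Cdh3* and *Dsp* the 3 genes with the closest log2 CPM (mean of at least 3). The genes closest to *Cdh1* and 1 of the 8 lists, which counts in their totals, are not reported here. Markers of mTECs, thymocytes, fibroblasts, myeloid and endothelial cells were listed as a check and are given mostly as sums. *Axin2*, *Krt5*, *Pkp1*, *Snai1*, *Snai2*, *Zeb2*, *Tcf3*, *Dsc1*, *Dsc3* and the other silent genes of the *Dsg* cluster were named after their values were seen.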

Additional observations from a re-analysis of the deposited data

Results flagged for a closer look

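In WT mTECs, 3 of the 10 genes had a library far from the other 3, out of 19 such comparisons of 4 libraries (Dixon's test, in which chance picks about 1 in 20), and in each it was replicate 1 of WT after adhesion. The share of all tested genes with such a library was not counted, and the 4 WT libraries span both conditions. *Cdh1* was at 1028 CPM there against 838 to 868 CPM in the other WT libraries, *Dsg2* at 88.7 CPM against 47.5 to 50.5 CPM, and *Ctnnb1* at 486 CPM against 518 to 523 CPM. The gap divided by the range was 0.846, 0.927 and 0.855, above the 95% limit for 4 values. The GC content of the transcripts was 50.7% for *Cdh1*, 47.5% for *Dsg2* and 50.3% for *Ctnnb1*, near the median of 49.4% of well-counted genes, and the part of the library's GC slope in these values was not tested.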

How the results depend on the processing

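For E6 against WT averaged over both conditions, 1 of the 10 genes was called under all alternatives but FDR alone, which gave 3, and from 0 to 1 with a library left out. The replicate block gave 1 as well. Before adhesion 1 gene was called instead of 0 with the GC correction and with only the 4 libraries compared, and after adhesion 1 with the GC correction, alone or with the replicate block; with a library left out it was 0 to 1 in each. For adhesion in WT the leave-outs gave 0 to 2, for the difference of the adhesion effects 0 to 1, and for adhesion in E6 and averaged 0. Of the 60 tested genes of the 8 junction, regulator and target lists, 7 were called for E6 against WT, 15 by FDR alone, and 3 to 19 with a library left out. For adhesion, 3 were called, 1 with the replicate block, 1 with culture time as a term and 1 to 8 with a library left out. Among all tested genes, 11.3% were called for E6 against WT averaged over both conditions, and 20.9% passed by FDR alone. Their number of calls also rose or fell with the library left out, in both averaged contrasts. The ranges of the listed genes are therefore not particular to junction genes. Over all genes, DESeq2 called 59 for adhesion in WT, edgeR 0. For E6 against WT, the GC correction called 899 before and 1390 after adhesion, and with the block 1246 after adhesion. With only the 4 libraries compared, 1457 of 11157 genes were called before adhesion. The culture time term and the block left 124 and 139 calls for averaged adhesion, from 221, and 345 and 383 for E6 against WT before adhesion, from 585. The cause of these differences was not tested.

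Signs turned mainly for log2 FC near 0. For adhesion averaged, the log2 FC with a library left out ran from -0.019 to 0.12 for *Cdh1*, from -0.036 to 0.023 for *Ctnnb1*, from -0.036 to 0.40 for *Dsg2* and from -0.075 to 0.020 for *Dsc2*. With the GC correction, without and with the replicate block, it was 0.017 and 0.017 for *Ctnnb1* and 0.027 and 0.024 for *Jup*. For *Jup* before adhesion it ran from -0.14 to 0.0019. For *Dsg2*, E6 against WT after adhesion was 0.0033 with no filter, 0.017 and 0.042 with the GC correction without and with the block, and -0.40 to 0.51 with a library left out. The low value was without replicate 2 and the high value without replicate 1 of WT after adhesion. Its adhesion effect in WT ran from -0.050 to 0.84 and the difference from -0.88 to 0.029. Replicate numbers of different conditions did not deviate together, with correlations from -0.08 to 0.22 over 9768 genes, so the numbers were not taken as pairs.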
